A study of Mus musculus with 8 samples.

Results

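The 6 genes described here encode ligands of the B7 family: Pdcd1lg2 (PD-L2) and Cd274 (PD-L1), which bind the inhibitory receptor PD-1, the costimulatory ligands Cd80, Cd86 and Icosl, and Cd276 (B7-H3). They were taken by symbol from a fixed list of B7 family ligands, and all 6 were found among the 13384 genes listed in both of the authors' deposited tables. Bone-marrow-derived macrophages came from female mice aged 12 weeks, 2 wild type (WT) and 2 lacking NF-κB-inducing kinase (NIK KO). Marrow cells of both genotypes grew for 7 days with 30% L929-conditioned medium, a source of the growth factor M-CSF, before replating in 5%. They then received PBS or 20 ng/mL of interleukin 4 (IL-4) for 6 hours, which gave 8 RNA-seq libraries in the groups WT PBS, NIK KO PBS, WT IL-4 and NIK KO IL-4, with 2 libraries each from the same 4 mice. The labels describe the deletion only as NIK KO, so whether it acts in the whole animal or in chosen cells was not stated in those labels. Each table compares the genotypes within 1 treatment, over 4 libraries. Values per mouse are not in these tables, so each level below is the mean of 2 libraries and the spread is carried by the standard error (SE) of the fold change.

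B7 ligands sit on antigen-presenting cells and set how a T cell responds once its antigen receptor is engaged. CD80 and CD86 bind CD28, which promotes activation, and CTLA-4, which restrains it, while ICOSL binds ICOS and supports helper T cell responses. PD-L1 and PD-L2 restrain T cells through PD-1: PD-L1 is widely inducible, above all by interferons, and PD-L2 is known in macrophages as a gene that IL-4 turns on through the transcription factor STAT6. NIK starts the noncanonical NF-κB pathway, and NF-κB proteins are among the known regulators of several B7 genes.

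The genes of the PD-1 ligands neighbour each other on mouse chromosome 19, and the stretches before their transcription starts are shown because these genes had the highest ratios of IL-4 to PBS level among the 6. Both are from RefSeq, build GRCm38.p6, plus strand, 250 bases ending just before the annotated start, at chr19:29410669-29410918 for Pdcd1lg2 and chr19:29367188-29367437 for Cd274. Capitals mark TTC and GAA with any 4 bases between them, the spacing of a STAT6 site.
Pdcd1lg2: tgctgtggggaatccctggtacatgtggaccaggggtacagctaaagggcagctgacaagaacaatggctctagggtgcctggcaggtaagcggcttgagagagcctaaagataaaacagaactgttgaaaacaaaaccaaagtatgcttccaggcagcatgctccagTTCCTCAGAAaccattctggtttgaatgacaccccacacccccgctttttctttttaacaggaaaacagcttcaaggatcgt
Cd274: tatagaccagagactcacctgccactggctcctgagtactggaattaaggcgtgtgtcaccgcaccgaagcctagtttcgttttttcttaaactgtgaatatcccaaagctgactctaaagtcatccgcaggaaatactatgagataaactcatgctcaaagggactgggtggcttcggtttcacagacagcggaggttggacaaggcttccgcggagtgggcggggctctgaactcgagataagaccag

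The match in Pdcd1lg2 lies from -82 to -73 relative to the start. Promoters of 5 of the 6 genes were matched by symbol (Cd86 was not), each 250 bases before to 50 after the start, and both strands were searched. Of 32851 RefSeq promoters of that length, 6.95% hold this motif. Among the 5 matched promoters, the one of Pdcd1lg2 held it 1 time and the other 4 held 0. An NF-κB form of GGG and TTTCC around 2 bases (1.63% of all promoters) and an IRF form of GAAA repeated after 2 bases (3.44%) had 0 matches in these 5 windows. The first bases after the RefSeq start were found in the searched part of a GENCODE M21 transcript for Pdcd1lg2, Cd80 and Icosl. They were not found there for Cd274 and Cd276, so the windows of these genes may not sit at the same start. A match describes letters in a window, not a bound site, and the absence of one says only that these letters are not there.

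Map3k14, the gene of NIK, checks the labels. Its mean normalized count, from the authors' deposited tables, was 425 in WT and 902 in the libraries labelled NIK KO with PBS, and 418 and 832 with IL-4. It was thus higher in the libraries labelled as knockouts, 2.12-fold with PBS (adjusted p = 0.176) and 1.99-fold with IL-4 (adjusted p = 0.00782, both from the authors' DESeq2 fit, adjusted by Benjamini-Hochberg over all genes). The labels do not say which exons the deletion takes out, and a transcript that keeps its other exons would still yield counts. That bears on counts being present, not on their excess over WT. The reason for the excess was not tested, so Map3k14 did not settle whether the genotype labels are right. Only the IL-4 table names its direction, NIK KO over WT, and the PBS table was read the same way. If it were reversed, the genotype means and fold changes with PBS below would change places, those with IL-4 would stay, and the comparisons between treatments would take other values. Map3k14 would then be lower in NIK KO with PBS (log2 -1.09) and higher with IL-4 (0.99).

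All 8 macrophage markers searched for were measured, Lyz2 and Csf1r at the highest levels. They summed to mean normalized counts of 612925 in WT and 628545 in NIK KO with PBS, and to 492843 and 468360 with IL-4. Of these, 1 had an unadjusted p under 0.05, Adgre1 with IL-4 (deposited log2 fold change 0.54 ± 0.18 and DESeq2 adjusted p = 0.672). Of all genes, 2.95% had such an unadjusted p with IL-4. Of 9 dendritic cell markers 8 were measured, with sums of 105 and 108 with PBS and 656 and 550 with IL-4 (WT, then NIK KO). Batf3, which IL-4-treated libraries held at 519 and 428, made up most of the IL-4 sums. Of the defining dendritic cell genes, Flt3 stood between 7.83 and 16.6 in the 4 groups, and Zbtb46 went from 6.54 with PBS to 39.3 with IL-4 in WT and from 6.78 to 43.7 in NIK KO. Fibroblast markers summed to 102 and 83.3 with PBS, and to 390 in WT but 113 in NIK KO with IL-4. There, 4 of 6 had an unadjusted DESeq2 p under 0.05, all lower in NIK KO, and the collagen gene Col3a1 was called (log2 -2.34 ± 0.53 in the authors' deposited table, adjusted p = 0.0107). Erythroid markers summed to 56.9 and 62.6 with PBS and to 186 and 89.0 with IL-4, where 2 of 3 had a p under 0.05, lower in NIK KO. Neutrophil markers summed to 208 and 174 with PBS and to 212 and 146 with IL-4, where 1 of 3 did, also lower in NIK KO. The part of these cells in the values below was not tested. Of 5 T cell markers and 5 B cell markers, no more than 2 of a list were measured in a table.

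None of the 6 ligand genes passed the test for a genotype difference under either treatment. The authors' DESeq2 test called 0 of 6 at an adjusted p under 0.05 with PBS, where 0.0366% of all 13676 genes were called, and 0 of 6 with IL-4, where 0.12% of 14193 genes were called. At an unadjusted DESeq2 p under 0.05 the count was also 0 of 6 in each table, against 1.24% and 2.95% of all genes. The median log2 fold change of the 6 genes, NIK KO over WT, was 0.06 with PBS and 0.10 with IL-4, beside -0.01 over all genes in each table. Each table has 4 members at a value above 0 and 2 below.

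Cd274, which encodes PD-L1, had mean normalized counts of 698 in WT and 761 in NIK KO with PBS, and of 2471 and 2792 with IL-4. The authors' deposited tables put its log2 fold change at 0.13 ± 0.34 (SE, 2 mice against 2) with PBS and at 0.18 ± 0.19 with IL-4. The 95% interval with IL-4 runs from -0.20 to 0.55, which is 0.872-fold to 1.46-fold. Cd274 had the narrowest interval of the 6 in the IL-4 table. A genotype difference of 2-fold lies outside this interval, and also outside that with PBS (0.685-fold to 1.74-fold). The same held for Cd86 and Cd80 in both tables, and for Pdcd1lg2 and Cd276 with IL-4. These intervals use the normal distribution. With 2 mice per genotype, intervals from Student's distribution would be wider and were not computed.

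Pdcd1lg2, which encodes PD-L2, was nearly silent without IL-4. Its mean normalized counts with PBS were 4.76 in WT and 3.68 in NIK KO, with a log2 fold change of -0.37 ± 1.71 in the authors' deposited table. The 95% interval there spans 0.0760-fold to 7.88-fold, so a genotype difference of the resting level was not detectable at this depth. With IL-4 the means were 398 in WT and 495 in NIK KO, and the deposited log2 fold change was 0.32 ± 0.26, with an interval of 0.876-fold to 1.77-fold. Its p from the authors' DESeq2 test (0.221 unadjusted and 1.00 adjusted) was the smallest unadjusted value of the 6 in either table, and it ranked 2083 of 14193 genes with IL-4 by the size of the Wald statistic.

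Icosl, the ligand of ICOS, had the lower value in NIK KO in both tables. Its means were 692 in WT and 548 in NIK KO with PBS, and 357 and 277 with IL-4. The log2 fold changes in the authors' deposited tables were -0.34 ± 0.36 and -0.37 ± 0.32 (DESeq2 p = 0.342 and 0.257, adjusted p = 1.00 each). Both estimates stand near 0.8-fold (0.791 and 0.775), about 1 SE from 0, and the interval with IL-4 reaches from 0.499-fold to 1.20-fold. The tables use the same mice, so the second value is not an independent repeat of the first.

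Cd86 and Cd80, the ligands of CD28 and CTLA-4, had almost equal means in the genotypes. Cd86 had 219 in WT and 242 in NIK KO with PBS and 425 and 442 with IL-4, with deposited log2 fold changes of 0.14 ± 0.33 and 0.06 ± 0.28. Cd80 had 137 in both genotypes with PBS (0.00 ± 0.39 in the authors' deposited table) and 129 in WT and 142 in NIK KO with IL-4 (0.14 ± 0.36). Its interval with IL-4, 0.679-fold to 1.79-fold, is wider than that of Cd86, 0.715-fold to 1.51-fold. Cd276, which encodes B7-H3, a ligand whose receptor is not settled, was at 104 in WT and 121 in NIK KO with PBS and at 103 and 96.0 with IL-4. Its deposited log2 fold changes of 0.22 ± 0.45 and -0.10 ± 0.42 have opposite signs, and each lies within 1 SE of 0.

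**Figure D1:**
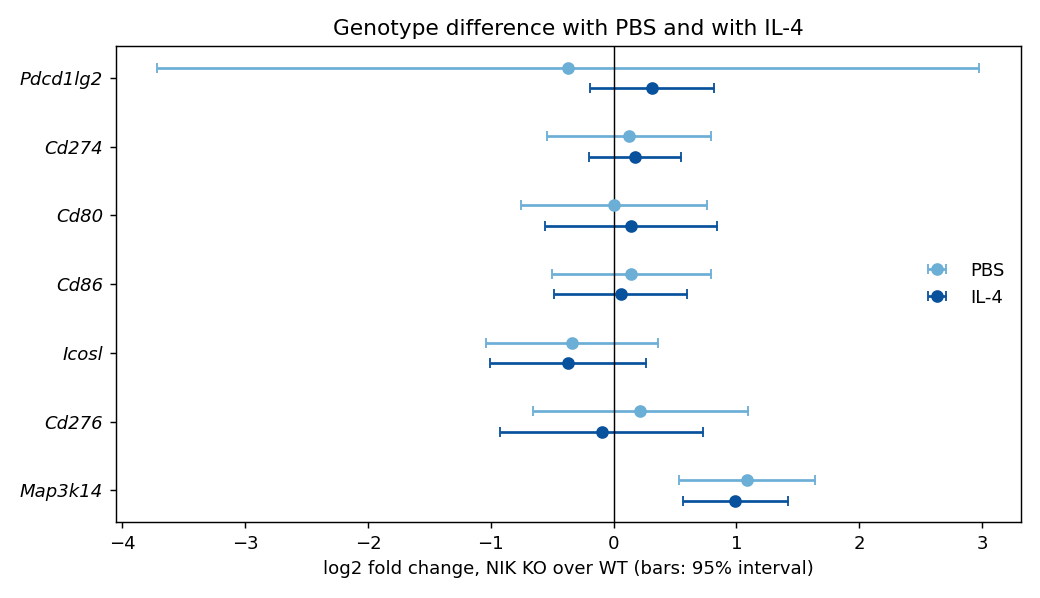
Points give the log2 fold change, NIK KO over WT, of the 6 ligand genes and of Map3k14 with PBS (light) and IL-4 (dark) on the horizontal axis, and bars give 95% intervals from the deposited standard errors. The bars of all 6 ligand genes cross 0 in both treatments, Pdcd1lg2 with PBS has by far the widest bar (-3.72 to 2.98), and the bars of Map3k14 lie above 0.

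The genotype difference was next compared between treatments, which asks whether the response to IL-4 differed between WT and NIK KO. For each gene the difference of its 2 log2 fold changes was set against their combined standard error, treated as independent although the mice are shared. It passed for 0 of the 6 genes, where 0.0149% of 13384 genes were called (z test, Benjamini-Hochberg adjusted p = 1.00 for each of the 6), and 0 of 6 had an unadjusted p under 0.05 (0.867% of all genes). For Cd274 the difference, IL-4 minus PBS, was 0.05 ± 0.39, with a 95% interval from -0.72 to 0.82. Cd86 had -0.09 ± 0.43, Cd80 0.14 ± 0.53 and Icosl -0.03 ± 0.48. Cd276 had -0.32 ± 0.62 and Pdcd1lg2 0.69 ± 1.73, the interval of the last reaching from -2.70 to 4.07. For Pdcd1lg2 the low counts with PBS leave a wide range. These values rest on the direction taken for the PBS table. Read the other way, a choice added after the data were seen, the test again passed for 0 of the 6, the Icosl difference became -0.71 with an interval from -1.65 to 0.24, and that of Cd274 became 0.30 with an interval from -0.47 to 1.07.

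Levels with IL-4 and with PBS come from tables that the authors normalized separately, so they are set side by side as a description, with no test. The median gene of base mean 100 or more stood 0.26 higher in the IL-4 table in WT and 0.28 higher in NIK KO on the log2 scale, and each ratio below is given relative to that median. The errors beside the ratios are approximate, taken from the standard errors of both genotype comparisons with the error shared equally between groups. In RNA from whole cultures, more cells that express a gene and more RNA per cell cannot be told apart.

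Of the 6 genes, 2 stood over 2-fold higher with IL-4 in both genotypes and 1 over 2-fold lower, where 3.09% of 13384 genes were higher and 2.23% lower by the same measure. The 1 lower gene, Icosl, falls short of 2-fold without rescaling (log2 -0.96 in WT and -0.99 in NIK KO), and in WT with the PBS table read the other way (-0.89, beside -1.60 in NIK KO). Pdcd1lg2 went from 4.76 to 398 in WT and from 3.68 to 495 in NIK KO. That is 69.7-fold in WT and 111-fold in NIK KO relative to the median gene (log2 6.12 and 6.80, each ± 1.22). By this ratio it ranked 4 of 13384 genes in WT and 5 in NIK KO, close to the known IL-4 targets Arg1 (223-fold in WT and 341-fold in NIK KO) and Retnla (492-fold and 393-fold). The fold rests on very few reads with PBS, so its size is uncertain. Of the 8 dendritic cell markers measured, Batf3 (log2 4.09 in WT and 3.75 in NIK KO, ± 0.55), Zbtb46 (2.32 and 2.41, ± 1.10) and Siglech (2.80 and 1.00, ± 1.54) were also over 2-fold higher with IL-4 in both genotypes. The others were not. Flt3 was at -0.29 and 0.81 (± 1.12), Clec9a at 1.59 and -0.61 (± 1.29), Ccr7 at -0.16 and -0.40 (± 0.80) and Dpp4 at 0.03 and 0.50 (± 1.52). Xcr1 was lower (-1.61 and -1.47, ± 1.22). The part of such cells in the Pdcd1lg2 level was not tested.

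Cd274 was 2.95-fold higher with IL-4 in WT and 3.03-fold in NIK KO (log2 1.56 and 1.60, each ± 0.28), above 96.9% and 97.4% of genes. Its rank, 412 in WT and 345 in NIK KO, was far below that of its neighbour Pdcd1lg2. Without IL-4 the normalized count of Pdcd1lg2 was 0.682% of that of Cd274 in WT and 0.484% in NIK KO, and with IL-4 it was 16.1% and 17.7%. The balance of the PD-1 ligand transcripts thus differed between treatments in both genotypes, with no correction for length in these shares.

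The costimulatory ligands went different ways. Cd86 was 1.61-fold higher with IL-4 in WT and 1.51-fold in NIK KO (log2 0.69 and 0.59, each ± 0.30). Cd80, its partner ligand of CD28 and CTLA-4, differed by less than its error, at -0.36 and -0.23 (± 0.37). Icosl was lower with IL-4, at 0.429 of the PBS level in WT and 0.417 in NIK KO (log2 -1.22 and -1.26, each ± 0.34), among the lowest 3.20% and 3.54% of genes. Cd276 was at -0.28 in WT and -0.60 in NIK KO (± 0.43). Each of the 6 genes thus had ratios in WT and in NIK KO that lay within 1 error of each other. For Cd274 and Icosl this depends on the direction taken for the PBS table. Read the other way, the log2 ratios of Cd274 were 1.43 in WT and 1.73 in NIK KO. Its genotype difference, IL-4 minus PBS, was then 0.30 ± 0.39, still within 1 SE of 0.

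**Figure D2:**
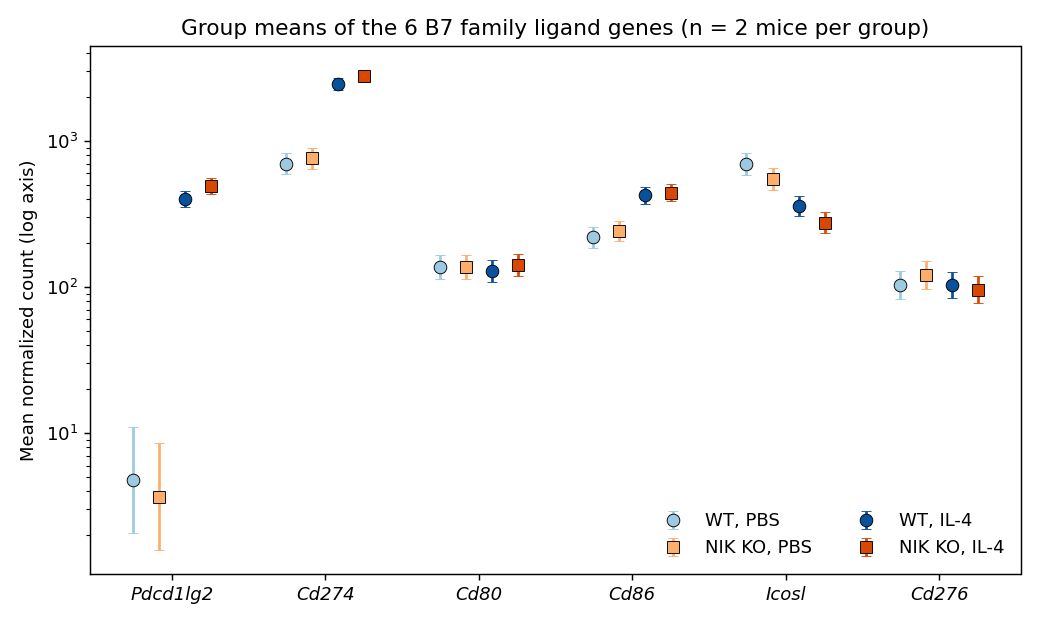
The vertical log axis gives the mean normalized count of each ligand gene in WT (circles) and NIK KO (squares) with PBS (light) and IL-4 (dark), 2 mice per group, with bars of 1 approximate SE and no correction for gene length or for the scale of the 2 tables. Pdcd1lg2 goes from below 5 to 398 or more, Cd274 and Cd86 are higher with IL-4, Icosl is lower, and WT and NIK KO symbols of 1 treatment lie close together.

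**Figure D3:**
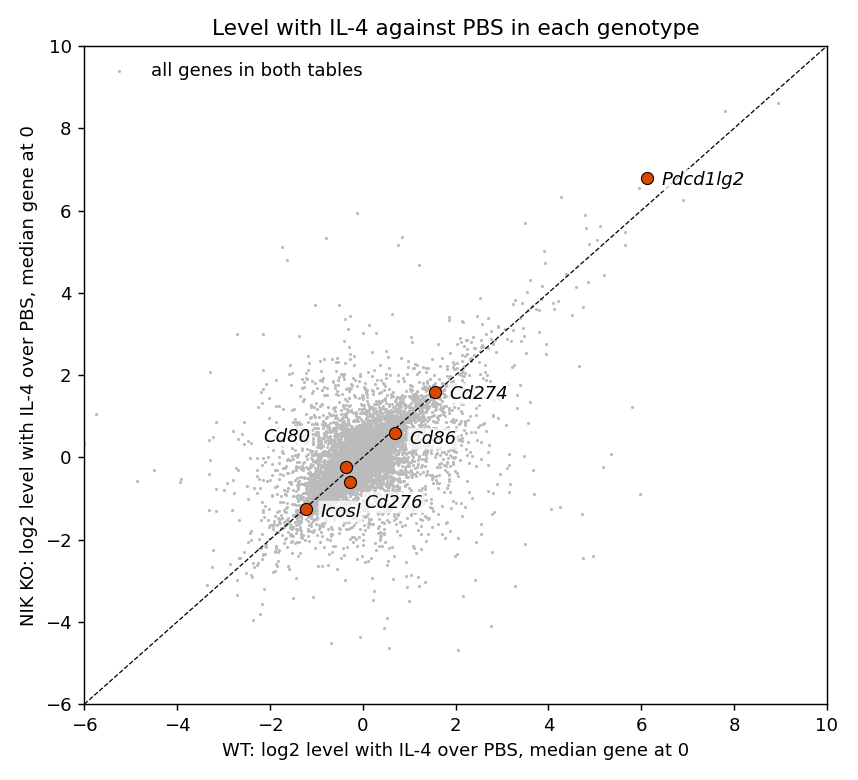
Each grey point is 1 of 13384 genes, with its log2 level with IL-4 over PBS in WT on the horizontal axis and in NIK KO on the vertical axis, the median gene of base mean 100 or more at 0, and 15 genes outside the axes. The 6 ligand genes (orange) lie near the dashed line of equal ratios, Pdcd1lg2 at the far upper right and Icosl at the lower left.

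Levels can be compared between genes once divided by length, here the longest coding transcript in GENCODE M21 (from 1729 bases for Pdcd1lg2 to 3622 for Cd274). With PBS, Icosl led in WT at 246 normalized counts per kb, followed by Cd274 at 193, Cd86 at 86.3, Cd80 at 43.2, Cd276 at 28.8 and Pdcd1lg2 at 2.75. In NIK KO the order was the same except that Cd274, at 210, stood before Icosl, at 195. With IL-4 the order in both genotypes was Cd274, Pdcd1lg2, Cd86, Icosl, Cd80 and Cd276. In WT these were 682, 230, 167, 127, 40.5 and 28.5 per kb, and in NIK KO 771, 287, 174, 98.3, 44.6 and 26.7. Icosl and Cd274 with PBS, and Cd80 and Cd276 in all 4 groups, did not differ beyond the 95% bound of their combined errors, nor did Pdcd1lg2 and Cd86 or Cd86 and Icosl in WT with IL-4. Pdcd1lg2 was thus last of the 6 with PBS and second with IL-4 in both genotypes. Sharing of sequence was small: 2.36% of the 31-base words of the Cd274 transcript and 0.701% of those of Cd80 occur in transcripts of other genes, and 0% for the other members. In RefSeq the span of Cd274 overlaps the gene Plgrkt and a predicted gene, Cd80, Icosl and Cd276 overlap only predicted genes or a pseudogene, and Pdcd1lg2 and Cd86 overlap 0 genes. The labels do not say whether the libraries kept strand, so reads where such spans meet cannot be told apart.

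For each ligand gene, the genes nearest in pattern were found by the distance between their 4 group means, on the log2 scale and centred per gene, among genes of base mean 100 or more in both tables. Pdcd1lg2 is itself below that minimum with PBS (base mean 4.22), so genes as low as it with PBS were not candidates. The approximate error of its log2 means with PBS was 1.21. It had no close match there: Flt1, a VEGF receptor, was nearest at a distance of 1.27, followed by the cationic amino acid transporter Slc7a2 at 2.06 and the mannose receptor Mrc1 at 2.64. With candidates of any base mean, a choice made after the data were seen, Cdh1, the gene of E-cadherin, was nearest at 0.322, with 8.64 and 5.79 normalized counts with PBS and 644 and 659 with IL-4. Cd274 was nearest to Wdfy2 (0.0364), Etv3 (0.0469) and Clic4 (0.0804), with 104 genes within 0.5, or 167 with candidates of any base mean. Icosl was nearest to Avpi1 (0.0365), Rab20 (0.135) and Ets2 (0.143), with 135 genes within 0.5. With candidates of any base mean Sag came first for Icosl (0.0342), before Avpi1, and 244 genes lay within 0.5. The patterns of the other members were common ones. Cd86 was nearest to Amz1, Rcn1 and Snx6 (0.0258 to 0.0388, 2046 genes within 0.5), Cd80 to Nelfb, Rnf126 and Clcn7 (0.0183 to 0.0281, 6027 genes), and Cd276 to March2, Pdgfb and Evi2a (0.0203 to 0.0466, 3962 genes). These distances compare 4 means and carry no test.

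The wider set of checkpoint and costimulation genes showed no genotype call either. Of 45 listed genes other than the 6, 31 were measured with PBS and 33 with IL-4. The authors' DESeq2 test called 0 in each table, where 0.0366% (PBS) and 0.12% (IL-4) of all genes were called. At an unadjusted DESeq2 p under 0.05 the count was also 0 in each, against 1.24% and 2.95% of all genes. With PBS 17 were higher and 14 lower in NIK KO with a median of 0.02, and with IL-4 16 and 17 with a median of -0.01. Among receptors of the 6 ligands, Cd28 was measured at 395 in WT and 426 in NIK KO with PBS and at 586 and 752 with IL-4 (0.11 ± 0.42 and 0.36 ± 0.31 in the authors' deposited tables). Icos was near the lowest counts, between 4.21 and 15.9 in the 4 groups, and Pdcd1 and Ctla4 were not analysed here.

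Of the 30 listed genes in both tables, 1 stood over 2-fold higher with IL-4 in both genotypes and 1 over 2-fold lower, beside 3.09% and 2.23% of all genes. Without rescaling these counts were 3 and 0, and with the PBS table read the other way 0 and 0. The first was Nectin3, at 27.5 or fewer normalized counts in all groups. The second was Tnfsf9, the ligand of the costimulatory receptor 4-1BB, which went from 169 to 89.0 in WT and from 122 to 59.9 in NIK KO. Cd40, a costimulatory receptor of antigen-presenting cells named here after its values were seen, was at 2.15-fold in WT and 1.98-fold in NIK KO. The log2 ratios of the 30 had medians of 0.04 in WT and 0.05 in NIK KO, close to the median gene. Pdcd1lg2 and Cd274 lay above all 30 in both genotypes. In NIK KO, however, Cd274 (1.60 ± 0.28) and Timd4 (1.52 ± 2.03) were within error of each other. With the PBS table read the other way, Timd4 and Nectin3 would lie above Cd274 in WT. Icosl lay below all 30 in WT, but within error of Tnfsf9 (-1.19 ± 0.56). It would not be the lowest in WT with the PBS table read the other way. In NIK KO Tnfrsf4 (-2.30 ± 1.37), Btnl2 (-1.49 ± 1.87) and Tnfsf9 (-1.30 ± 0.56) were lower than Icosl.

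**Figure D4:**
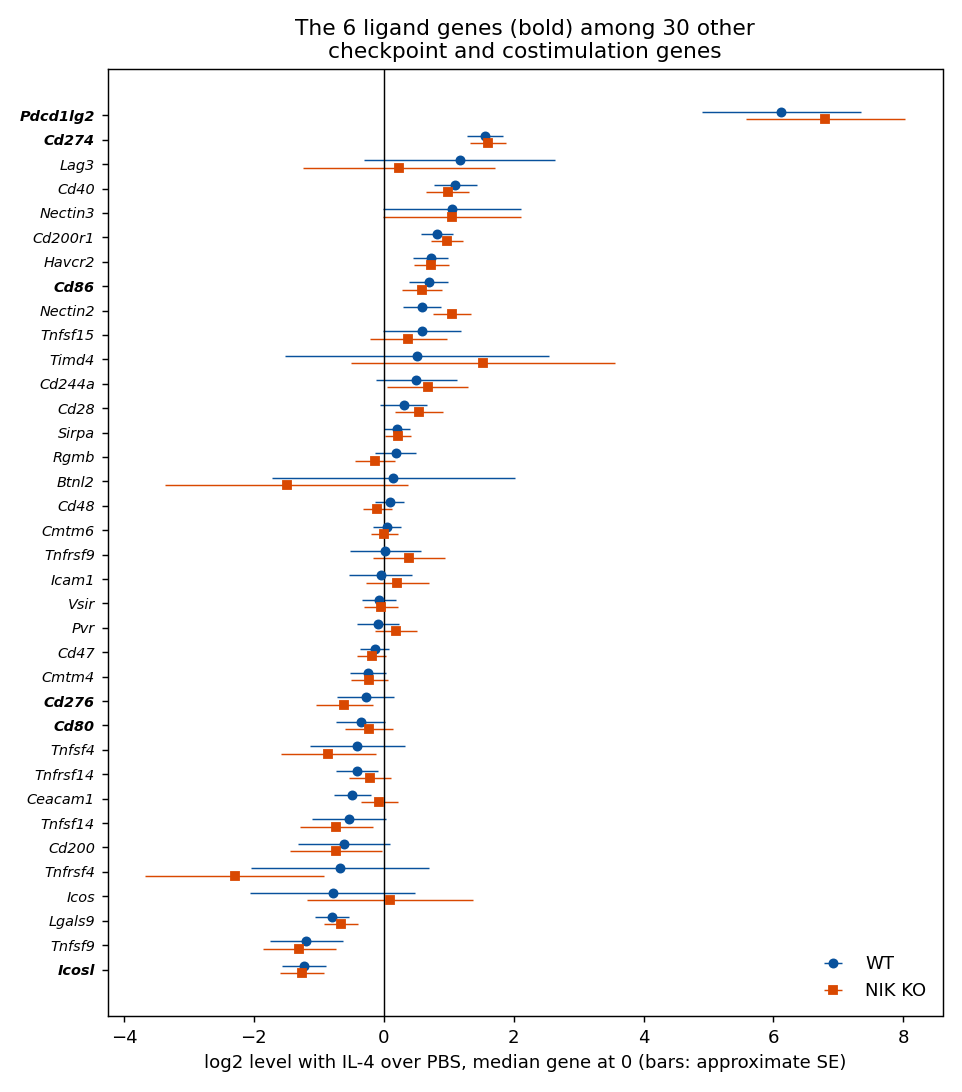
The horizontal axis gives the log2 level with IL-4 over PBS, median gene of base mean 100 or more at 0, of the 6 ligand genes (bold) and 30 other checkpoint and costimulation genes in WT (circles) and NIK KO (squares), with bars of 1 approximate SE. Pdcd1lg2 (6.12 and 6.80) and Cd274 (1.56 and 1.60) are at the top, and Cd86 stands among genes above 0. Icosl (-1.22 and -1.26) has the lowest value in WT, close to that of Tnfsf9 (-1.19), but not in NIK KO.

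Of a list of genes that carry or modify IL-4, interferon and NF-κB signals, 30 of 30 were measured in each table. With IL-4 the authors' DESeq2 test called 1, Map3k14 itself, where 0.12% of all genes were called, and with PBS 0, where 0.0366% were. Beside Map3k14, Stat3 had an unadjusted p under 0.05 with IL-4, at 1674 in WT and 2161 in NIK KO (0.37 ± 0.17 in the authors' deposited table, DESeq2 p = 0.0310, adjusted p = 1.00). Of all genes, 2.95% had an unadjusted DESeq2 p under 0.05 with IL-4. Stat6, the main transducer of IL-4, had log2 fold changes of -0.12 ± 0.25 (PBS) and 0.19 ± 0.16 (IL-4) in the authors' deposited tables, and Irf1, an interferon-induced activator of Cd274, at -0.04 ± 0.30 and -0.08 ± 0.17. For the noncanonical subunits, the deposited values of Nfkb2 were -0.51 ± 0.34 and -0.13 ± 0.25, and those of Relb -0.32 ± 0.34 and -0.11 ± 0.27. This list was chosen with earlier results of these data known, so the next count describes the list and cannot test it. With IL-4, 6 of the 30 stood over 2-fold higher than with PBS in both genotypes (3.09% of all genes), and 8 without rescaling. Named after their values were seen, these were Irf4 (29.3-fold in WT and 36.1-fold in NIK KO), Socs1 (13.3-fold and 12.2-fold), Egr2 (11.9-fold and 12.0-fold), Jak2 (2.60-fold and 2.87-fold), Klf4 (2.42-fold and 2.43-fold) and Rel (2.35-fold and 2.27-fold). Stat6 itself was at 0.845-fold and 1.04-fold and Irf1 at 1.51-fold and 1.46-fold.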

How the data were processed

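RNA-seq results of 8 libraries were used as 2 tables, 1 per treatment, with 2 mice of each genotype. The authors used Salmon 1.4.0, DESeq2 1.32.0 and genome build GRCm39 per the submitters' processing notes, with their roles, the annotation and any filter not given in the sources used here. The authors deposited a base mean per gene, a signal averaging counts divided by size factors over a table's 4 libraries. The deposited fold change and its standard error are log2 values, the Wald statistic they deposited is a score, and the deposited p-value and adjusted p-value are those of DESeq2, per the file headers. No counts per library were used, so the depth of each is unknown and no interval per library is given.

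Group means were computed from base mean and fold change, since groups are of equal size. This is close to, not exactly, the mean of the libraries. Intervals of 95% use the normal distribution. Ratios of IL-4 to PBS levels were centred on the median of 9148 genes of base mean 100 or more in both tables. Where 2 gene identifiers carry 1 symbol (Itgam), the one of larger base mean was kept. The text names the 6 members, Map3k14, checkpoint and regulator genes with a deposited p under 0.05, Cd28, Icos, Stat6, Irf1, Nfkb2, Relb and the 3 genes nearest in pattern. Cell type markers and other genes were named after their values were seen. The members and lists were chosen with earlier results of these data known. GENCODE M21 (GRCm38) gave transcript lengths and 31-base words, and RefSeq GRCm38.p6 gave promoters. Neither is the authors' build. The symbol of March2, altered in the tables, and the newer symbol of Cd244a were set by their identifiers. Python 3.11.15, numpy 2.4.6, pandas 2.3.3, scipy 1.17.1 and matplotlib 3.10.9 were used. One further promoter motif is not reported here.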

Additional observations from a re-analysis of the deposited data

How the results depend on the processing

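With 2 mice per group, precision is set by the standard error of each gene, which depth per library could not refine here. No ligand gene was called with PBS, with IL-4 or in the difference between treatments under any alternative in which it was tested. Minimums of base mean left out Pdcd1lg2 with PBS (10 and 100) and in the difference (100), and Cd276 with IL-4 and in the difference (100). Counts over all genes did move. With PBS 5 genes were called, and 0 when p came from Student's distribution on 2 degrees of freedom. With IL-4 17 were called, 9 with adjustment over genes of base mean 100 or more, and 0 with that distribution. In the difference between treatments 2 were called, 20 with an error correlation of 0.5, 0 over genes of base mean 100 or more, and 0 with Student's distribution on 4 degrees of freedom. A threshold of 0.1 and a base mean minimum of 10, run within each treatment, kept the counts there within 1.5 times. With the PBS table read the other way, added after the data were seen, 11 were called in the difference, and its value changed sign for Pdcd1lg2 (-0.055), Cd86 (0.20) and Cd276 (0.12). The IL-4 to PBS ratios of the 6 genes moved by less than their errors under the 3 other scalings and with that reading, but the count over 2-fold lower in both genotypes went from 1 to 0 without rescaling and with that reading. The value of Cd80 in NIK KO, within its error of 0, went from -0.23 to 0.04 without rescaling. No paired analysis was possible because no mouse is in both genotypes and the tables hold no values per library, and for the same reason no library could be left out.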
